A study of Mus musculus with 38 samples.

Results

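In CD8+ T cells from tumours of old mice, 2188 of 73610 ATAC-seq peaks (2.97%) carried more reads in the Tadys subset than in both other subsets. A peak was taken as a member when its mean over the old Tadys libraries was 30 normalised reads or more and at least 2 times both the old Tterm mean and the old Tprog mean, with both Tadys values above every old Tterm and old Tprog value. Normalised reads are the reads in a peak divided by a size factor of the library. The members were thus chosen by their Tadys, old Tterm and old Tprog values, which are given as a description, and Tadys was not tested against any group. The same rule turned round gave 616 peaks (0.837%) highest in old Tterm, 954 (1.3%) highest in old Tprog and 619 (0.841%) lowest in Tadys, but 2 Tadys libraries clear the condition on non-overlap more easily than 3 libraries of another subset do.

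ATAC-seq cuts DNA with a transposase where chromatin is open, so the number of reads in a peak reports the accessibility of that stretch of DNA. Peaks at gene starts are usually shared between cell states, whereas peaks inside and between genes hold most of the enhancers that differ between T cell states. In tumours, CD8+ T cells that keep meeting antigen pass from a Slamf6+ progenitor exhausted state, which depends on TCF-1 (gene Tcf7), to a terminally exhausted state that carries the inhibitory receptor Tim-3 (gene Havcr2), while cells that carry neither surface protein have been described as an age-associated dysfunctional population.

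The mice were wild type C57BL/6J, and the tumour was B16-OVA, a melanoma line that makes ovalbumin, taken 15 days after inoculation. In mice 64 to 68 weeks old the endogenous CD8+ T cells gave 2 Tadys libraries, which the labels call age-associated dysfunctional, 3 Tterm libraries (Slamf6- Tim-3+) and 3 Tprog libraries (Slamf6+ Tim-3-). In mice 10 to 12 weeks old they gave 5 Tterm and 4 Tprog libraries. The design text gives the Slamf6- Tim-3- gate to a subset it names TTAD, the only double-negative subset that it lists, and cells were pooled before sequencing. There is no young Tadys library, so what is particular to Tadys and what is particular to Tadys of old mice cannot be told apart. A second table holds OT-1 cells, which carry a transgenic T cell receptor for ovalbumin, from the same tumour (Tterm: 6 old and 7 young libraries, Tprog: 2 old and 2 young) and naive spleen CD8+ T cells (2 old and 2 young). The design text gives 2 or 3 independent biological replicates per subset, while the groups of young Tterm, young Tprog and OT-1 Tterm hold 4 to 7 libraries each. Which of those libraries share a biological replicate is not stated, so the n of these groups can exceed their biological replicates and the spread behind each p-value is that between libraries, which may in part be technical.

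Reads in peaks numbered 8514962 and 12106936 in the Tadys libraries, against 22269906 to 26905264 in old Tterm, 4635804 to 27755380 in old Tprog, 9927729 to 87558165 in young Tterm and 7613710 to 22448687 in young Tprog. The peak at the Havcr2 gene end averaged 935 ± 16.1 normalised reads in Tadys (SD, n = 2), 1505 ± 31.9 in old Tterm and 615 ± 62.1 in old Tprog (SD, n = 3 each). The peak at the Slamf6 gene end averaged 243 ± 97.0 in Tadys, 227 ± 33.0 in old Tterm and 482 ± 72.7 in old Tprog. Tadys thus lay near Tterm at the gene of the marker that both gates exclude, and between the other subsets at Havcr2. Cd8a and Cd3e, genes of the T cell surface, were open in all 17 libraries. All endogenous libraries carry the same batch entry, 1 & 2, which names more than 1 batch. Whether the batch differed between libraries is not stated, so a value within a batch could not be had.

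Few members lay at a promoter. Of 32851 RefSeq promoter windows (250 bases before to 50 after a gene's start, build GRCm38.p6, which is mm10), 45 windows of 44 genes overlapped a member, and 42 members (1.92%) held such a window, against 15.0% of all peaks. The share was as low in peaks highest in old Tterm (1.79%) and in old Tprog (1.26%) by the same rule, so it does not set the members apart from these. Those 45 windows had a median GC content of 60.7% and 8 CpG dinucleotides, while the 14673 windows under any peak had 61.3% and 21. Of the 45, 48.9% had 10 or more CpG, against 81.4% of windows under any peak and 43.5% of all windows. The 250 bases before the start are printed for 5 protein-coding genes, because a member covered all or nearly all of each window: Kdr, the receptor for vascular endothelial growth factor (chr5:75978456-75978705, minus strand), Glp1r, the receptor for glucagon-like peptide 1 (chr17:30901617-30901866, plus strand), Wnt9b, a secreted Wnt ligand (chr11:103749822-103750071, minus strand), Cyp4f16, a cytochrome P450 (chr17:32536307-32536556, plus strand), and Actc1, cardiac muscle actin (chr2:114052876-114053125, minus strand). The genes were chosen after their values were seen. Capitals mark any of the 15 motifs searched.
Kdr: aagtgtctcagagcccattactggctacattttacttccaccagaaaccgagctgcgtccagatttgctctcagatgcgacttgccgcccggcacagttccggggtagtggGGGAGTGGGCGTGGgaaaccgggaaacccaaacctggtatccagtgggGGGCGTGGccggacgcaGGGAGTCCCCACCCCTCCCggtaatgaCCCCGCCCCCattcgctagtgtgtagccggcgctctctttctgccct
Glp1r: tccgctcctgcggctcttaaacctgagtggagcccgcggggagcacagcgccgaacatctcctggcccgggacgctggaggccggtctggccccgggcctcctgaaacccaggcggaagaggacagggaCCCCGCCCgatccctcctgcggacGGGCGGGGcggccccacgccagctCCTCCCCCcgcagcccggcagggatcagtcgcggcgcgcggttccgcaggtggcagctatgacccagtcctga
Wnt9b: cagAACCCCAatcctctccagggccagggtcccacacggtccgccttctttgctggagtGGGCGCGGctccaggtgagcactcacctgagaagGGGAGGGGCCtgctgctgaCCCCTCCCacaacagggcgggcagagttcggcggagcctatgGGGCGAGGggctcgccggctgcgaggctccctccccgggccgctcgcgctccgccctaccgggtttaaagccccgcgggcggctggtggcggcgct
Cyp4f16: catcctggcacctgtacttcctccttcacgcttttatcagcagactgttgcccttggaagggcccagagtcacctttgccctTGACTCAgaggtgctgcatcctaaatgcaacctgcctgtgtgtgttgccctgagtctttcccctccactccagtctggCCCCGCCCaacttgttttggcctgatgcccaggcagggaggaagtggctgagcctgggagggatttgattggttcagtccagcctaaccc
Actc1: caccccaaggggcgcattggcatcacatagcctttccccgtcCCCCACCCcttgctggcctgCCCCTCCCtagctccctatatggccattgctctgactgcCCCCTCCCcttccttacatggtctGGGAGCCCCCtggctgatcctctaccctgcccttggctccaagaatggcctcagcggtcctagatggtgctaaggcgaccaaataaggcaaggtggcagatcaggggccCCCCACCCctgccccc

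The GC-rich KLF motif (CCNCNCCC, both strands, N for any base) accounts for most capitals in these 5 sequences. It stood in 21 of the 45 windows (46.7%), against 68.1% of windows under any peak and 49.5% of all windows. The AP-1 motif (TGANTCA), printed in the Cyp4f16 sequence, stood in 5 of 45 windows (11.1%), against 5.17% and 7.81%. The RUNX motif (TGNGGTT), in the Wnt9b sequence, stood in 11.1%, against 13.3% and 14.9%, and the NF-kB motif (GGGA and CC with any 4 bases between), which overlaps KLF matches in the Kdr sequence, in 26.7%, against 26.9% and 20.7%. The TCF-1 and LEF-1 motif (CTTTGAT) stood in 3 windows (6.67%), against 2.47% and 3.73%. The ETS motif (CAGGAAGT), that of GATA factors (AGATAA) and that of STAT5 (TTCNNNGAA) each stood in 2 windows, and the E box (CAGCTG) in 7. No window held the letters searched for T-box (AGGTGTGA), NFAT (TGGAAAA), NR4A (AAAGGTCA), IRF (GAAA repeated after any 2 bases), CRE (TGACGTCA) or CTCF (CCA, AG and GGC, each apart by any 2 bases), which stood in 0.927% to 4.66% of windows under any peak. A match is a run of letters and not a shown binding site.

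The levels at these promoters were low to moderate. Glp1r had 160 and 188 normalised reads in Tadys, against 62.9, 113 and 56.3 in old Tterm, 88.4, 101.0 and 59.0 in old Tprog, 52.5, 58.9, 63.9, 53.8 and 97.3 in young Tterm, and 120.5, 123, 49.9 and 182 in young Tprog. Young Tprog thus reached the Tadys range in 1 library, and young Tterm stayed below it. The promoter peak of Kdr had 84.2 and 88.1 in Tadys, against 47.4, 40.0 and 25.7 in old Tterm, 57.6, 24.9 and 32.4 in old Tprog, 22.5, 24.8, 18.5, 47.8 and 24.5 in young Tterm, and 33.1, 61.6, 67.3 and 66.2 in young Tprog. No other library reached Tadys at Kdr, and 3 of the 4 young Tprog libraries came nearest. Actc1 had 42.1 and 76.0 in Tadys, against 12.9 to 24.0 in old Tterm and 13.5 to 27.4 in old Tprog. Young Tterm stayed below Tadys with 16.7 to 35.6, and the highest young Tprog library, in a range of 11.2 to 42.5, reached the lower Tadys value. Glp1r is 1 of 26 genes given 3 or more members, all of them nearest-gene assignments within 100000 bp.

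Across the members, the mean per group had a median of 54.6 normalised reads in Tadys, 18.0 in old Tterm, 17.9 in old Tprog, 21.0 in young Tterm and 25.4 in young Tprog. The ratio of the Tadys mean to the higher old mean had a median of 2.59 (interquartile range 2.24 to 3.17), reached 3 in 665 members (30.4%) and 5 in 87, with a maximum of 13.3. Just inside the ratio of 2 lay members near Gm15319, Gcnt2 and in a gene-free stretch of chromosome 5, and just outside it peaks at Abcg2, Gm21119 and Zfp992. Gcnt2 had 58.1 and 105 in Tadys, against 33.6, 17.3 and 20.7 in old Tterm and 42.3, 35.0 and 44.9 in old Tprog. Abcg2, left out, had 106 and 198 in Tadys, against 73.2, 53.8 and 40.6 in old Tterm and 53.8, 86.2 and 88.1 in old Tprog. The reads behind the values are few: a member had a median of 27 reads in Tadys 1 and 36 in Tadys 2, and as few as 5 and 7. Over the members, log2 levels of the 2 Tadys libraries had a Pearson r of 0.808, as a description across peaks that share both libraries.

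How far 1 Tadys library carries to the other was read by choosing peaks with a single library. Tadys 2 alone chose 2867 peaks, of which 50.4% were at 2 times or more the higher old mean in Tadys 1. Tadys 1 alone chose 5217 peaks, of which 28.8% reached that ratio in Tadys 2. In the library that did not choose them, the median ratio was 2.01 for the peaks Tadys 2 chose and 1.33 for those Tadys 1 chose. The old Tterm and old Tprog means that chose the peaks stand in both ratios, so these values are a description and no independent check of one library by the other. With Tadys 2 left out, the rule thus finds 5217 peaks in place of 2188.

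**Figure D1:**
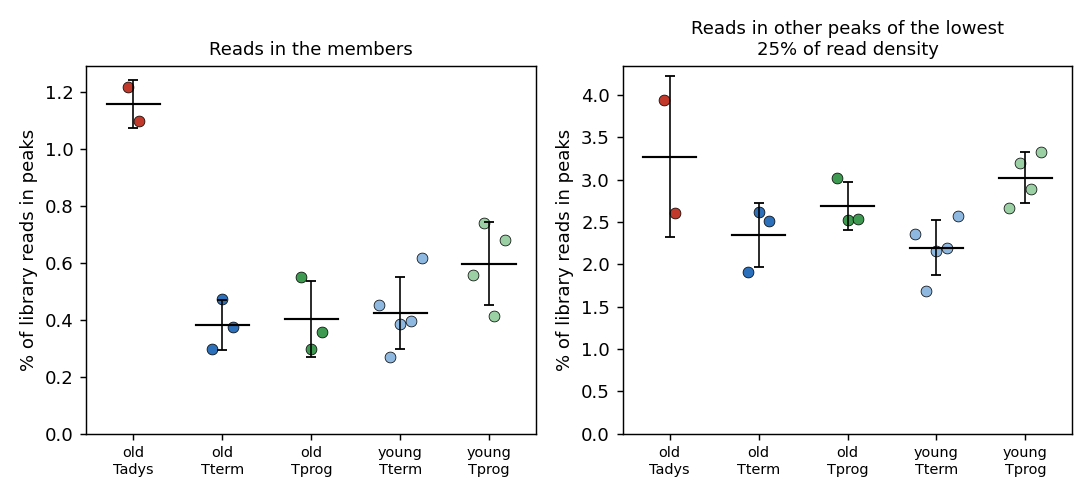
Share of each library's reads in peaks (%) that fell in the members (left) and in other peaks of the lowest 25% of read density (right), by group. Points are libraries, bars the mean and error bars the SD. Both Tadys libraries are at 1.1% or more in the members; on the right Tadys 1 is at 3.94% and Tadys 2 at 2.6%, inside the range of the other groups.

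The members took 1.22% and 1.10% of the reads of the Tadys libraries. The share was 0.297%, 0.473% and 0.374% in old Tterm, 0.552%, 0.299% and 0.358% in old Tprog, 0.453%, 0.269%, 0.387%, 0.398% and 0.617% in young Tterm, and 0.559%, 0.741%, 0.413% and 0.680% in young Tprog. The Tadys shares lay apart from all 15 others by the choice of members, and among the others young Tprog was on average highest, at 0.598% ± 0.145 (SD, n = 4), with overlap between all groups. Other peaks of the lowest 25% of read density, which are 16743 peaks under 63.5 normalised reads per kb, took 3.94% of the reads of Tadys 1 and 2.60% of Tadys 2, against 1.91% to 2.62% in old Tterm, 2.52% to 3.02% in old Tprog, 1.69% to 2.57% in young Tterm and 2.67% to 3.33% in young Tprog. Tadys 1 was the highest of the 17 libraries in reads from sparse peaks in general, and Tadys 2 was not. The part of library depth and of reads in sparse peaks in the members' levels was not tested.

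Against the young groups, the Tadys mean was at least 2 times both young means in 1180 members (53.9%) and in 4.33% of all peaks. Both Tadys values exceeded all 9 young values in 1329 members (60.7%) and in 6.05% of all peaks. The rule chose the members for high Tadys values, so these shares are a description and not a separate result. It was below a young mean in 19 members. The young Tprog mean exceeded the young Tterm mean in 1613 members (73.7%), against 51.1% of all peaks, whereas the old Tprog mean exceeded the old Tterm mean in 1105 (50.5%). Young Tprog exceeded old Tprog in 81.4% of members, against 50.2% of all peaks, and young Tterm exceeded old Tterm in 66.1%, against 51.1%. Since the rule held the old Tterm and old Tprog values low, these shares between ages are not a result about age.

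The members were peaks of low read density that often lay far from genes. Within 1000 bp of a gene end lay 4.3% of members, against 19.4% of all peaks, but the share was also 4.06% in peaks highest in old Tterm and 4.51% in peaks highest in old Tprog by the same rule. Within genes lay 38.5% of members, against 43.5% of all peaks. Between genes lay 57.2% of members, against 41.7% of the old Tterm peaks, 44.0% of the old Tprog peaks and 37.1% of all peaks. No protein-coding gene was within 100000 bp of 497 members (22.7%), against 6.17% of the old Tterm peaks, 10.5% of the old Tprog peaks and 6.96% of all peaks. The members were narrower than all peaks (median width 741.5 bp, against 909 bp). Peaks highest in old Tterm and in old Tprog were narrower still, at 673 bp each, so narrowness does not set the members apart. Members were also sparser than all peaks (median 36.4 normalised reads per kb over all 17 libraries, against 102). Of the 10% of all peaks with the lowest density, 15.6% were members, and they held 1145 members (52.3%). Of the 10% with the highest density, 0.0815% were members. Peaks highest in old Tterm by the same rule had a median density of 122 and those highest in old Tprog of 83.7. The density averages all 17 libraries, of which 2 are Tadys, while Tterm and Tprog have young libraries as well. How far this make-up of the libraries bears on the densities was not tested, so they are not taken to set the members apart from the peaks of the other subsets. Within Tadys 1 and Tadys 2 the members had a median of 54.1 and 54.7 normalised reads per peak, against 92.2 and 89.6 in other peaks. Chromosome X held 118 members (5.39%, against 2.71% of all peaks), and its share was 5.65% in the peaks lowest in Tadys too. Unplaced contigs held 27 members (1.23%, against 0.258% of all peaks).

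**Figure D2:**
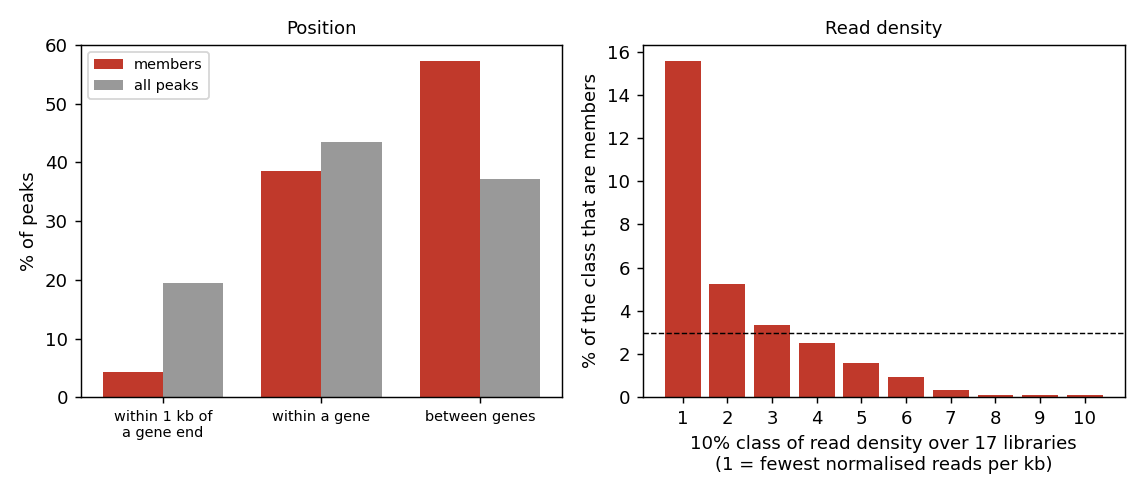
Left, share of peaks (%) near a gene end, within a gene and between genes, for members and all peaks. Right, share of each 10% class of read density (normalised reads per kb over 17 libraries) that are members, with the share over all peaks as a dashed line. Members are 15.6% of the sparsest class and 0.0815% of the densest.

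The members with the highest ratios were nearly closed in the other old subsets. The peak within Armc10, which encodes an armadillo repeat protein (chr5:21655488-21655682), had 42.1 and 39.5 normalised reads in Tadys, against 6.0, 0.7 and 2.5 in old Tterm, 0.0, 4.7 and 2.5 in old Tprog, 0.0, 5.8, 0.8, 3.8 and 6.0 in young Tterm, and 7.1, 8.3, 7.9 and 0.8 in young Tprog. It had the highest ratio of all members, 13.3, with no overlap with any group. The peak within Tert, the catalytic subunit of telomerase (chr13:73636054-73636384), had 26.0 and 45.6 in Tadys, against 5.2, 1.4 and 5.8 in old Tterm, 0.0, 3.4 and 2.5 in old Tprog, 3.8, 10.6, 15.1, 6.1 and 17.3 in young Tterm, and 14.2, 20.2, 10.3 and 22.3 in young Tprog. Here the young libraries of both subsets were on average above the old ones of the same subset, and none reached Tadys. Lgr6, a receptor for R-spondins, had 16.0 and 56.2 in Tadys, and Pepd, a dipeptidase, 40.1 and 47.1, while no old Tterm or old Tprog library exceeded 9.7 at Pepd or 5.0 at Lgr6. At Lgr6 the Tadys libraries lay far apart, and the young Tterm range of 0.8 to 13.1 came close to the lower of them. Of the 10 highest ratios, 5 lay within a gene and 5 between genes.

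The members with the most reads were of another kind. A peak between genes on chromosome 17 (chr17:13550706-13553154) had 16315 and 12247 normalised reads in Tadys, against 3107, 6029 and 4209 in old Tterm, 8516, 3141 and 4603 in old Tprog, 5492, 2915, 4732, 4848 and 9908 in young Tterm, and 8149, 13152, 4122 and 8448 in young Tprog. Young Tprog 2 lay between the Tadys libraries, and all other libraries lay below both. The peak nearest Zfp825, a zinc finger gene, had 6827 and 4781 in Tadys, against 1243 to 2500 in old Tterm, 1259 to 3355 in old Tprog, 1276 to 3814 in young Tterm and 1624 to 5160 in young Tprog. The peak within Smo, the signal transducer of the Hedgehog pathway, had 2405 and 1661, against 512 to 811 in old Tterm, 533 to 1345 in old Tprog, 461 to 1500 in young Tterm and 593 to 1973 in young Tprog. At all 3, young Tprog overlapped Tadys. Only 35 members had a Tadys mean of 500 or more.

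Members lay close together at a few loci, several of them families of near-identical copies, where reads that fit several copies make each peak's own count uncertain. On chromosome 8, between 19000001 and 21000000, 45 of 130 peaks (34.6%) were members, nearest genes such as 9530057J20Rik, Gm21119 and Gm15319 and beta-defensin genes. Their summed level was 9740 and 10791 in Tadys, against 3153, 4618 and 4109 in old Tterm, 5280, 2544 and 3675 in old Tprog, 4965, 3101, 3455, 3941 and 5914 in young Tterm, and 5684, 6987, 3236 and 6682 in young Tprog. The region's other peaks summed to 16429 and 13403 in Tadys, against 14037 to 15058 in old Tterm and 15260 to 16567 in old Tprog, so the groups overlapped there. Across Snhg14, the long noncoding transcript of the imprinted Ube3a region that hosts small nucleolar RNAs (chr7:59272737-60450177), 19 of 47 peaks (40.4%) were members, with sums of 1827 and 1677 in Tadys, 414, 685 and 409 in old Tterm, and 945, 333 and 530 in old Tprog. Young Tterm had 480, 324, 654, 537 and 1248, and young Tprog 485, 908, 389 and 841. The other Snhg14 peaks summed to 1835 and 957 in Tadys, against 477 to 1130 in old Tterm and 454 to 1195 in old Tprog. Near Asmt, a melatonin synthesis gene on chromosome X, 12 of 21 peaks within 1000000 bp were members. These regions were chosen after their values were seen. By contrast 1361 of the 1499 genes with a member had just 1, and 24.9% of members had another member within 100000 bp, against 19.8% of all peaks with one.

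Members are 2.97% of all peaks, and among the antigen receptor loci the immunoglobulin locus Igh held a larger share. Across the immunoglobulin heavy chain locus Igh (chr12:113258768-116009954), 9 of 127 peaks (7.09%) were members, 6 of them within the stretch from 113262740 to 113336839. Their summed level was 826 and 752 in Tadys, against 183, 268 and 244 in old Tterm, 330, 199 and 253 in old Tprog, 306, 221, 312, 320 and 424 in young Tterm, and 433, 451, 283 and 635 in young Tprog. The other Igh peaks summed to 12213 and 12163 in Tadys, inside the ranges of 11807 to 15204 in old Tterm and 10472 to 14489 in old Tprog. The Igk light chain locus held 2 of 25 (8.0%), too few peaks to set it above the overall share. The T cell receptor loci held 3 of 103 (2.91%) at Tra and Trd, 0 of 32 at Trb and 0 of 17 at Trg. With so few peaks at Trb and Trg, 0 does not set them below the overall share. Cd79b, which encodes a signalling chain of the B cell receptor, had a member at its gene end (chr11:106313746-106314493), with 78.1 and 82.0 in Tadys, against 17.2, 38.6 and 25.7 in old Tterm, 26.9, 40.4 and 7.5 in old Tprog, 22.5, 21.2, 13.5, 21.2 and 32.8 in young Tterm, and 47.3, 22.1, 36.4 and 51.0 in young Tprog. No other library reached the Tadys values at this peak.

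Of the 29 peaks of 6 B cell marker genes, 2 were members (6.9%), at Cd79b and within Ebf1, a B lineage transcription factor. Their summed level was 2471 to 2656 in Tadys, against 2276 to 2330 in old Tterm and 2442 to 2807 in old Tprog, so Tadys stood above Tterm and inside the range of Tprog. Single markers went both ways against old Tterm. At Pax5, which fixes the B lineage, the 10 peaks had no member and summed to 852 to 948 in Tadys, 683 to 841 in old Tterm and 908 to 1092 in old Tprog. At Cd22, an inhibitory receptor of B cells, the 3 peaks summed to 739 to 758 in Tadys, 566 to 624 in old Tterm and 755 to 815 in old Tprog. The 13 Ebf1 peaks summed to 717 to 752 in Tadys, below the 777 to 892 of old Tterm and inside the 686 to 792 of old Tprog. Blnk, an adaptor of the B cell receptor, had 36.1 to 66.8 in Tadys, overlapping the 46.4 to 84.9 of old Tterm and the 59.0 to 76.1 of old Tprog. No peak was given to Ms4a1 or Cd79a. The part of B cells in the members was not tested. In these bulk libraries fewer cells of a type and less open chromatin per cell cannot be told apart.

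Of the lists for other cell types, fibroblast and endothelial genes gave 2 of 36 peaks (5.56%, against 2.97% of all peaks), both at Kdr. There were 1 of 37 (2.7%) for gamma-delta and MAIT cells (near Il23r), and 0 of 16 for melanoma, 0 of 47 for myeloid cells, 0 of 54 for CD4 and regulatory T cells and 0 of 25 for NK cells. For none of these lists, nor for any T cell list, did the summed level of both Tadys libraries exceed all old Tterm and old Tprog libraries.

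The genes that define exhausted T cells were almost free of members. Over 132 genes of the T cell state lists, 9 of 1303 peaks (0.691%) were members, against 2.97% of all peaks. The list peaks were denser, with a median of 185 normalised reads per kb, and 2.07% of them lay in the sparsest 10%. Progenitor exhausted genes gave 0 of 304, tissue residency 0 of 110, the AP-1 family 0 of 78 and interferon response 0 of 39. Terminally exhausted genes gave 3 of 246, effector genes 3 of 183, T cell receptor and costimulation genes 1 of 213, circulating effector genes 1 of 99 and virtual memory genes 1 of 74. The age-associated list (2 of 126) and the cytokine receptor list (1 of 131) shared their members with these.

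The 9 T cell members were mostly weak peaks. Within Tox, which drives exhaustion, the peak at 6704856 on chromosome 4 had 72.1 and 63.8 in Tadys, against 15.5, 27.6 and 20.7 in old Tterm, 26.9, 38.4 and 26.6 in old Tprog, 20.6, 16.6, 15.1, 18.2 and 11.9 in young Tterm, and 11.8, 30.3, 40.4 and 86.1 in young Tprog. A single young Tprog library exceeded Tadys. Near Runx3, a regulator of CD8 T cell cytotoxicity and residency, adjacent peaks had 76.1 and 68.4, and 52.1 and 36.5, in Tadys. The highest old Tterm or old Tprog value was 25.8 at the stronger of them and 13.3 at the weaker. Zap70, the kinase behind the T cell receptor, had 68.1 and 92.7 in Tadys, against 25.8, 39.3 and 27.3 in old Tterm and 19.2, 13.5 and 39.9 in old Tprog. Nr4a3, an orphan receptor induced by antigen, had 38.1 and 39.5 in Tadys, against 11.2, 11.7 and 9.1 in old Tterm and 23.1, 10.8 and 19.1 in old Tprog. Il2ra, the interleukin 2 receptor alpha chain, had 46.1 and 53.2 in Tadys, against 20.7, 31.7 and 20.7 in old Tterm, and 1 young Tterm library at 50.1 lay between the Tadys values. A second peak near Tox and peaks near Itga4, an integrin, and within Zbtb16, a factor of innate-like T cells, make up the 9.

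**Figure D3:**
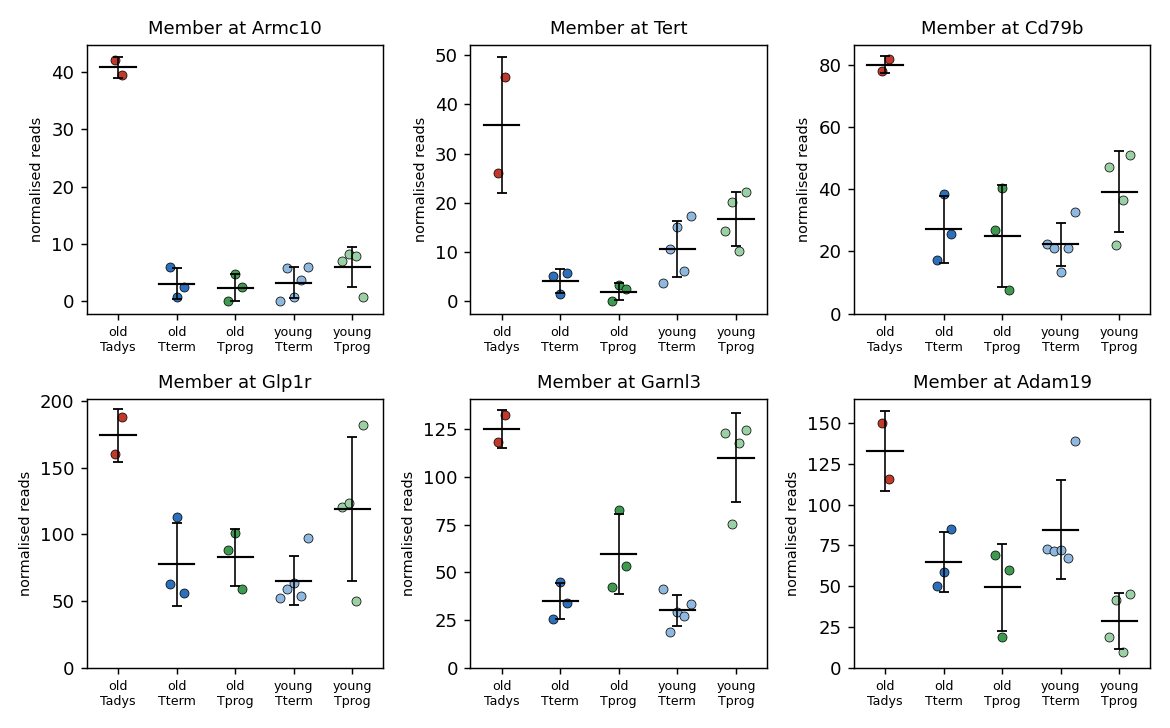
Normalised reads of 6 members in each library of the 5 endogenous groups. Points are libraries, bars the mean, error bars the SD. At Armc10, Tert and Cd79b no other library reaches Tadys; at Glp1r and Adam19 1 young library does, and at Garnl3 young Tprog lies beside Tadys and young Tterm far below.

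The young endogenous libraries, which the rule did not use, allow a test of the members between Tterm and Tprog. In young mice, Tterm was higher than Tprog at 19 of 2163 members tested (0.878%) and lower at 80 (3.7%), while 14.3% of the 71756 peaks tested were higher and 11.3% lower (limma, Benjamini-Hochberg adjusted p under 0.05). Calls among members were thus below the background in both directions. The filter on low values (all 17 libraries together averaging at least 10) let in 160 members that passed only through their Tadys values. With the mean taken over the other 15 libraries, an alternative chosen after seeing the data, 18 of 2003 members were higher (0.899%) and 82 lower (4.09%), against 14.5% and 11.4% of all peaks. The median log2 difference (Tterm minus Tprog) over members was -0.31, against -0.01 over all peaks, and 74.0% of members were below 0. Other peaks of the lowest 25% of read density had a median of -0.28, near that of the members, but 1.94% of them were higher and 9.8% lower, more than among the members in both directions. The 80 members lower in young Tterm had median group means of 89.9 in Tadys, 32.9 in old Tterm, 37.0 in old Tprog, 27.5 in young Tterm and 62.7 in young Tprog. With library totals made equal the split became 7 higher and 138 lower, and DESeq2 called 151 members. Equal totals also moved the median of all peaks towards lower in young Tterm. Here and in the comparisons below, most counts of other fits stand without the share of all peaks called. Such counts show how far the calls move and are not a result about the members. The count of 99 called members fell to 63 without young Tterm 2, 61 without young Tterm 3, 58 without young Tterm 4 and 44 without young Tprog 4.

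The member of lowest adjusted p among those named lay within Garnl3, which encodes a Rap GTPase-activating-like protein (chr2:33032369-33033219). It had 41.3, 19.0, 29.4, 27.3 and 33.4 normalised reads in young Tterm, against 123, 75.4, 118 and 124 in young Tprog, with 118 and 132 in Tadys, 25.8, 44.9 and 34.0 in old Tterm and 42.3, 82.8 and 53.2 in old Tprog. The log2 difference of young Tterm from young Tprog was -1.85 (SE 0.30, adjusted p = 2.66e-05), and the groups did not overlap. Here and in the comparisons below, called members were named only where the compared groups did not overlap. Non-overlap at a named member is thus by choice and no further support. The Tadys values lay within and just above the young Tprog range. Msi2, an RNA-binding protein of stem cells, had 1.9, 8.4, 6.7, 12.1 and 6.6 in young Tterm, against 28.4, 13.8, 38.8 and 60.6 in young Tprog, and 38.1 and 80.5 in Tadys. Its log2 difference was -2.14 (SE 0.53, adjusted p = 0.00324). The peak near Amotl2, an angiomotin family gene, had 15.0, 8.2, 9.3, 22.7 and 17.3 in young Tterm, against 42.5, 52.4, 62.5 and 52.6 in young Tprog (log2 difference -1.87, SE 0.40, adjusted p = 0.000891). By the same choice, no young Tterm library reached a young Tprog library at Msi2 or Amotl2. A second peak near Kdr, 92101 bp from the gene, fell likewise (log2 difference -1.91, SE 0.45, adjusted p = 0.00209).

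A smaller set was higher in young Tterm. Within Adam19, a metalloprotease gene, a peak had 73.1, 71.9, 72.4, 67.5 and 139 in young Tterm, against 18.9, 41.4, 9.5 and 45.4 in young Tprog, with 150 and 116 in Tadys, 49.9, 58.7 and 85.3 in old Tterm and 69.2, 18.9 and 59.8 in old Tprog. Its log2 difference was 1.70 (SE 0.40, adjusted p = 0.00183). Parp14, an ADP-ribosyltransferase, had 30.0, 37.0, 44.6, 36.4 and 107 in young Tterm, against 9.5, 29.4, 7.9 and 15.1 in young Tprog (log2 difference 1.67, SE 0.46, adjusted p = 0.00754). At both genes young Tterm 5 was far above the other libraries of its group.

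In the second table, 2036 members (93.1%) overlapped a peak by 1 bp or more, against 95.4% of all peaks, and 1545 of the overlapping peaks had a mean of 10 or more and were tested. The tested peaks need not match the members in extent. Among those named below, the peaks at Gatad2a, Map7, Zfp618 and Adamts1 are wider than the member. The peak at Cd79b overlaps only a part of its member. A difference at such a peak may lie outside the member. The 4 comparisons there were made over 84091 peaks each, and they share libraries: young OT-1 Tterm, young OT-1 Tprog and young naive cells each enter 2 of them, so their calls are not independent.

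In young OT-1 cells, Tterm was higher than Tprog at 2 members (0.129%) and lower at 22 (1.42%), while 4.06% of all peaks were higher and 3.57% lower. The median over members was -0.59, against -0.01 over all peaks and -0.36 over other peaks of low density, and within batch 4 & 5 alone it was -0.56, against -0.01. The peak near St6gal1, a sialyltransferase (chr16:23378974-23380178), had 16.3 lowest, 29.2 median and 36.9 highest in 7 young OT-1 Tterm libraries, against 98.2 and 129 in 2 young OT-1 Tprog libraries (log2 difference -1.92, SE 0.36, adjusted p = 0.00101). The same direction was seen at this peak in the endogenous cells, with 63.8, 30.8, 32.0, 34.9 and 53.7 in young Tterm, against 109, 103, 138.5 and 128 in young Tprog. The 2 higher members were within Gatad2a, a subunit of the NuRD complex, with 23.3 lowest, 44.5 median and 65.6 highest in Tterm, against 6.7 and 22.4 in Tprog (log2 difference 1.83, SE 0.40, adjusted p = 0.00388), and near Pvr, the poliovirus receptor CD155, with 58.5 lowest, 64.1 median and 64.4 highest in Tterm, against 29.0 and 33.0 in Tprog (log2 difference 1.00, SE 0.30, adjusted p = 0.0374). In young endogenous cells neither of these 2 members was called by limma, and both differences of Tterm from Tprog pointed the other way. They were -0.42 at Gatad2a (adjusted p = 0.716) and -0.46 at Pvr (adjusted p = 0.404). None of the named OT-1 groups overlapped, as the choice of names required. The 24 calls became 57 with DESeq2, 39 with edgeR, 46 when the compared groups alone were fitted, 48 with no batch term and 54 with a pseudocount of 5. They became 6 without young OT-1 Tprog 1, 4 without young OT-1 Tprog 2, 13 without young OT-1 Tterm 3 and 68 without young OT-1 Tterm 1.

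Young OT-1 Tprog was higher than young naive cells at 87 members (5.63%) and lower at 34 (2.2%), while 15% of all peaks were higher and 9.15% lower. The median was 0.36, against -0.03 over all peaks and -0.04 over other peaks of low density. All naive libraries are in batch 3, so batch and group cannot be told apart. Hivep3, a zinc finger gene, had 72.5 and 91.9 in OT-1 Tprog, against 15.4 and 8.0 in naive cells (log2 difference 2.76, SE 0.41, adjusted p = 3.05e-05). Eng, endoglin, had 19.0 and 48.3, against 3.9 and 2.4 (log2 difference 2.95, SE 0.73, adjusted p = 0.0045). Among the lower members, Cd79b had 10.0 and 2.4 in OT-1 Tprog, against 30.8 and 33.7 in naive cells (log2 difference -2.45, SE 0.71, adjusted p = 0.0133), and Map7, a microtubule-binding protein, 36.8 and 20, against 173 and 182 (log2 difference -2.66, SE 0.49, adjusted p = 0.000327). The groups did not overlap at any of the 4, by the choice of names. With equal totals the split was 55 higher and 35 lower, and in a fit of the compared groups alone 368 members were called (18.3% higher and 5.57% lower, against 22.1% and 22.6% of all peaks). The 121 calls became 57 without young naive 1, 44 without young naive 2 and 39 without young OT-1 Tprog 2.

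Age was tested where both ages exist outside the rule. Between old and young OT-1 Tterm, 1 member was called (lower, 0.0647%), and none higher, while 0.178% of all peaks were higher and 0.088% lower; 58 members (3.75%) and 7.99% of all peaks had an unadjusted p under 0.05. The median over members was 0.03, against 0.02, and it was -0.02 within batch 4 & 5 and 0.22 within batch 6, which has 1 old library. Trat1, a transmembrane adaptor of the T cell receptor complex, had a lowest value of 7.1, a median of 24.1 and a highest of 37.1 in 6 old libraries, against 48.9, 62.3 and 81.9 in 7 young ones. The log2 difference was -1.52 (SE 0.28, adjusted p = 0.0121), -1.78 within batch 4 & 5 and -0.55 within batch 6. By the choice of names, no old library reached a young one. The OT-1 peak tested (chr16:48758530-48761558) is wider than the member it overlaps (chr16:48760968-48761442), so the difference may lie outside the member. In another comparison, not of age, the endogenous Trat1 member was lower in young Tterm than in young Tprog (log2 difference -1.88, SE 0.59, adjusted p = 0.0179). Calls numbered 4 with DESeq2, 3 in a fit of the compared groups alone, 3 with a pseudocount of 5 and 2 with equal totals. Without old OT-1 Tterm 6 there were 5 calls, without young OT-1 Tterm 6 there were 2 and without young OT-1 Tterm 7 there were 3.

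Between old and young naive cells, 10 members were higher (0.647%) and 17 lower (1.1%), while 4.08% of all peaks were higher and 1.16% lower. The median over members was -0.64, against 0.11 over all peaks and -0.28 over other peaks of low density, and 81.0% of members were below 0. The members took 0.325% and 0.387% of the reads of old naive libraries, against 0.611% and 0.613% in young ones. Zfp618, a zinc finger gene, had 5.0 and 10.5 in old cells, against 54.6 and 71.4 in young cells (log2 difference -2.93, SE 0.51, adjusted p = 0.00089), and Chdh, choline dehydrogenase, 10.9 and 9.8, against 88.0 and 65.8 (log2 difference -2.76, SE 0.58, adjusted p = 0.00434). Among the higher ones, Adamts1, a secreted metalloprotease, had 122 and 81.1 in old cells, against 11.6 and 12.8 in young cells (log2 difference 2.93, SE 0.57, adjusted p = 0.00237), and Nrip2, a nuclear receptor interacting protein, 110.0 and 134, against 8.4 and 13.6 (log2 difference 3.39, SE 0.79, adjusted p = 0.00978). None of these groups overlapped, by the same choice of names. The share of lower members against all peaks depended on the fit: a fit of the compared groups alone called 385 members, 3.3% higher and 21.6% lower, against 23.2% and 8.46% of all peaks, and DESeq2 called 62, 0.712% higher and 3.3% lower, against 5.19% and 2.51%. Scaled to equal totals the split was 6 higher and 21 lower. Those 27 calls became 3 without old naive 1, 3 without young naive 1 and 7 without young naive 2.

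**Figure D4:**
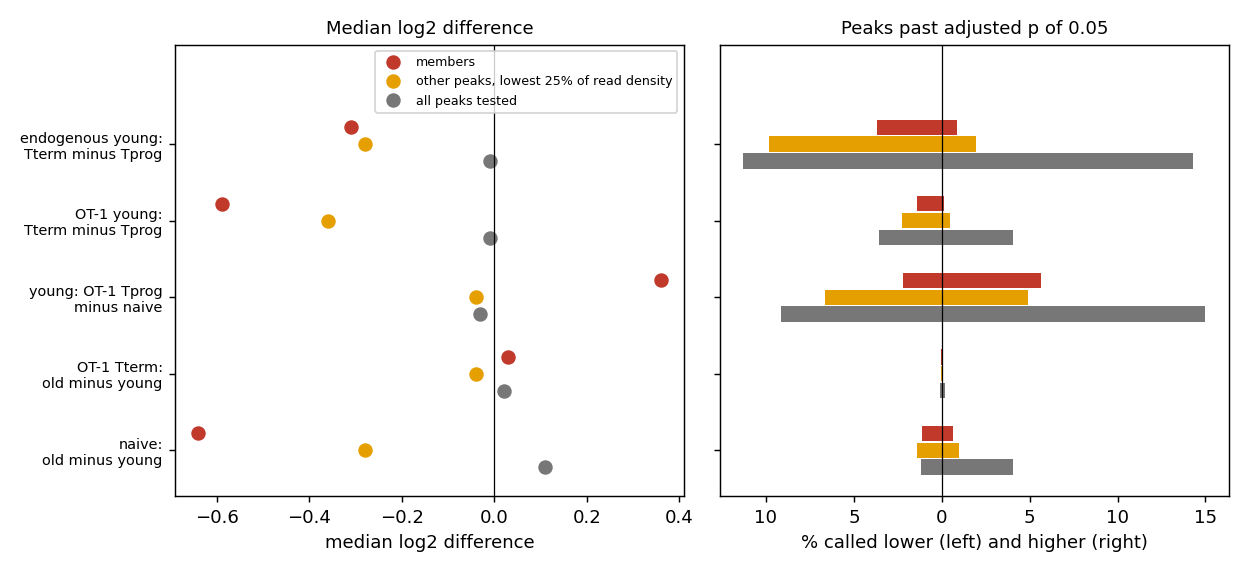
Median log2 difference (left) and share of peaks past an adjusted p of 0.05, lower to the left and higher to the right (right, %), for members, other peaks of the lowest 25% of read density and all peaks tested, in 5 comparisons. Member medians run from -0.64 between old and young naive cells to 0.36 between OT-1 Tprog and naive cells. In the fit shown their shares of calls lie below those of all peaks in all 5, in both directions. Between old and young OT-1 Tterm just 1 member is called, too few to set the shares apart. For lower calls between old and young naive cells the shares are near each other (1.1% and 1.16%), and their order turns round in other fits.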

How the data were processed

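ATAC-seq was done on sorted, pooled mouse CD8+ T cells with read pairs of 50 bp. The submitters' processing notes name the build mm10 and the tools Bowtie2 2.2.9, MACS2 2.1.1, SAMtools 1.3.1, Picard 2.8.0 and DESeq2 1.28.1. The read shift and the merging of peaks are not given in the sources used here. The authors deposited 2 tables of signal values, reads per peak divided by a size factor, with 73610 peaks by 17 libraries and 169323 by 21. Whole reads were recovered from every column (100.0% of values whole within 0.02). Peaks with a mean of 10 or more were tested by limma 3.58.1 (R 4.3.3) on log2(value + 1), with 1 model per table, an intensity trend and a batch 6 term for the second table. P-values were adjusted over all peaks tested by Benjamini-Hochberg. Differences on that scale understate those of low peaks. The fit was tested on simulated data. Alternatives were edgeR 4.0.16 and DESeq2 1.42.0 on recovered reads, other pseudocounts, filters, scalings and batch terms, a replicate block and each library left out. Peaks were given to the nearest RefSeq protein-coding gene within 100000 bp; peak sequences were not analysed here. Members and gene lists were chosen with earlier results of these data known. Named members follow a rule: the 10 highest ratios and levels, list genes, genes with 3 or more members, up to 6 called members per direction whose libraries do not overlap, and the 3 peaks on each side of the ratio of 2; the text uses a part of these.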

Additional observations from a re-analysis of the deposited data

Results flagged for a closer look

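In 11 of 118 sets of library values of 1 group, a library stood far from the others of its group by a Dixon outlier test. By chance that test gives about 1 in 20 sets if values are normally distributed and sets independent. The sets here share libraries and the values were not log-transformed, so this rate may not hold. Among the 7 young OT-1 Tterm libraries, 1 had 0.87% of its reads in members, and the next had 0.51%. In young Tterm, the highest library had 47.8 normalised reads at the Kdr promoter peak (next 24.8), 50.1 near Il2ra (next 16.9), 139 within Adam19 (next 73.1) and 107 within Parp14 (next 44.6). In young Tprog, the lowest library had 0.797 within Armc10 (next 7.09), 1434 at the peak near Gm39469 (next 2165), 33.1 at the Kdr promoter peak (next 61.6), 11.8 near Il2ra (next 26.7) and 75.4 within Garnl3 (next 118), and the highest had 972 near Vmn2r129 (next 525).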

How the results depend on the processing

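The number of members was 1243 with a Tadys mean of 50 or more and 665 with a ratio of 3, and it ran from 1943 to 5217 with each old library left out, the highest being without Tadys 2; equal totals (2518), a mean of 20 or more (2569) and medians in place of means (2163) changed it by less than 1.5 times. Called members between young Tterm and Tprog were 151 with DESeq2, 100 with the filter taken over the libraries other than Tadys (chosen after seeing the data), and 44 to 124 with a library left out. In young OT-1 cells the 24 calls between Tterm and Tprog were 54 with a pseudocount of 5, 46 in a fit of the compared groups alone, 39 with edgeR, 57 with DESeq2, 48 with no batch term, and 4 to 68 with a library left out. Between OT-1 Tprog and naive cells they were 368 in a fit of the compared groups alone and 39 to 83 with a library left out. Between old and young OT-1 Tterm they were 3 with a pseudocount of 5, 2 with equal totals, 3 in a fit of the compared groups alone, 4 with DESeq2 and 1 to 5 with a library left out. Between old and young naive cells they were 385 in a fit of the compared groups alone, 62 with DESeq2 and 3 to 21 with a library left out. The cause of these moves was not tested. These counts are of members alone, without the share of all peaks called in each fit, and are not a result about the members. A replicate block gave 103 calls between young Tterm and Tprog, 5 between OT-1 Tterm and Tprog, 131 between OT-1 Tprog and naive cells, 2 between old and young OT-1 Tterm and 33 between old and young naive cells; same-numbered libraries deviated together by correlations of -0.198 to 0.279, not all above 0.1 in any comparison, so the numbers are not taken to pair libraries. Where 1 library remained in a group, it was assumed to vary like the other groups. Of the values of single named members under the alternatives, 629 stayed on their side of the threshold, 113 lost the call and none turned direction. Equal totals moved the median of all peaks from -0.01 to -0.17 (young Tterm minus Tprog), to -0.13 (OT-1 Tterm minus Tprog) and to -0.11 (OT-1 Tprog minus naive, otherwise -0.03), and from 0.11 to -0.12 (naive cells, old minus young); the member medians there were -0.46, -0.71, 0.27 and -0.87. The few reads per member limit the precision of single values, and all intervals of change are those of these libraries.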

Other observations

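Among the members with the most reads, 3 on different chromosomes kept nearly the same ratio to each other in all 17 libraries, although their highest and lowest levels differed by 5.6, 5.49 and 5.22 times. The chromosome 17 peak (chr17:13550706-13553154) ran from 2915 to 16315 normalised reads, the peak near Zfp825 from 1243 to 6827 and the peak within Smo from 461 to 2405. The chromosome 17 peak had 2.28 to 2.65 times the level of the Zfp825 peak (median 2.5) and 5.89 to 7.43 times that of the Smo peak (median 6.67). The 3 were set side by side after their values were seen, and whether they share reads from similar sequence was not tested.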
